A study of Rattus norvegicus with 4 samples.

Results

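The ATP-binding cassette (ABC) transporter genes of subfamilies A to G, without Abca1 and Abcg1, were followed in NR8383 cells, an established rat alveolar macrophage line part of whose cells float and part of which adhere in culture. Members were all non-control array probes whose transcript accession carries a RefSeq symbol starting with Abca to Abcg and a digit. The rule used names only and no measured value. It found 56 probes for 41 genes, of 16506 named genes and 45280 probes measured in all. The same annotation holds 52 ABC symbols of this form, and the 11 others (Abca3, Abca6, Abca8, Abca9, Abca12, Abca13, Abca14, Abca16, Abcb5, Abcf2 and Abcg3l2) were not analysed here.

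Total RNA was measured on 4 one-colour arrays, 1 for each of 4 biological replicates of a single group. The cells, after 20 passages, had been kept for 4 h in DMEM medium with 10% fetal bovine serum, and the labels add the letters ALI, which they do not spell out. The sample records also give 15% serum for growth and 48 h for seeding. The group is a control in 1 established line, so no condition could be compared, and a signal from fewer expressing cells and from less RNA per cell cannot be told apart. All arrays lay on 1 slide, and the p-values take in no uncertainty beyond the spread between these samples. The 75th percentile of signal was 83.4, 112, 126 and 167 on replicates 1 to 4. Of macrophage markers, 8 of 9 measured were well above background on every array, among them Cd68, Csf1r and Spi1, and Marco was so on 1 array. Epithelial markers were so for 2 of 9 (Ager and Foxj1) and hepatocyte markers for 0 of 5. Neutrophil and mast cell markers were so for 0 of 4, fibroblast markers for 1 of 4 (Dcn), and endothelial markers for 3 of 4 (Pecam1, Cdh5 and Vwf).

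ABC proteins use the binding and hydrolysis of ATP to move lipids, peptides, metal cofactors, bile salts or conjugated drugs across membranes, mostly out of the cytosol. Some members span the membrane in a single long chain, and others are shorter chains that work only as pairs. Subfamilies E and F have the ATPase modules without membrane spans and act in translation. In lung macrophages, which take up surfactant lipid and inhaled particles, the family is known mainly for lipid export and for export of glutathione conjugates and lipid mediators.

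Of the 41 ABC genes, 20 (48.8%) were detected, meaning that a probe was flagged well above background on all 4 arrays, beside 53.1% of all named genes. Among them were Abca2 and Abca7, Abcb4, Abcb8 and Abcb10, Abcc1, Abcc4, Abcc5 and Abcc10, Abcd3 and Abcd4, Abce1, Abcf1 and Abcf3, and Abcg3l1, Abcg3l4, Abcg4 and Abcg8. On no array were 14 members (34.1%), beside 34.4% of all named genes: Abca4, Abca8a, Abca15, Abcb1a, Abcb9, Abcb11, Abcc3, Abcc6, Abcc8, Abcc9, Abcc12, Abcg2, Abcg3 and Abcg5. The remaining 7 were flagged on 1 to 3 arrays. Both shares of the family lay close to those of all genes. Most roles held members on both sides of the call, such as the organic anion exporters with 4 of 8 detected.

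A second call asked of each probe whether its signal exceeded the 95th percentile of negative control spots, with limma over all 45280 probes and a one-sided adjusted p under 0.05. It called 29 ABC genes (70.7%), beside 69.8% of all named genes. These were the 20 detected members, with adjusted p of at least 2.15e-08 (Abcc5) and at most 1.17e-05, and 9 others. The 9 were Abca5, Abca17, Abcb1b, Abcc2, Abcc3, Abcc8, Abcd2, Abcg3l3 and Abcg5. The software's looser positive-and-significant flag held on all arrays for 27 members (65.9%), beside 66.9% of all named genes. The number of members flagged well above background was 23, 21, 23 and 26 on replicates 1 to 4 (56.1%, 51.2%, 56.1% and 63.4%), beside 55.3%, 57.9%, 60.7% and 62.7% of all named genes. Replicate 4, with the brightest 75th percentile, had the highest share in both, and the part of array brightness in this was not tested.

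**Figure D1:**
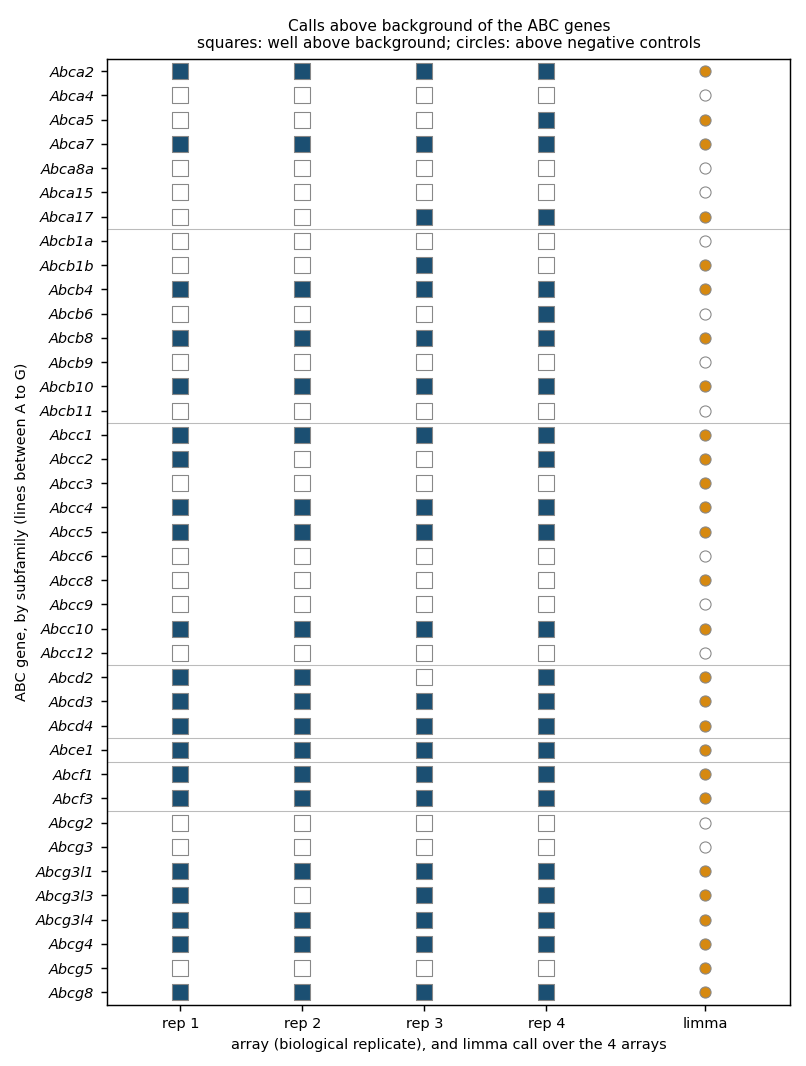
Calls for 39 of the 41 ABC genes, in rows by subfamily. Filled squares mark arrays (columns, replicates 1 to 4) on which a probe was well above background, and filled circles mark genes above the negative controls by limma; 18 rows have 4 filled squares and 14 have none.

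Levels below are the log2 processed signal minus the array's 75th percentile, so that 0 is that percentile, and a gene's level is the mean of its detected probes. A probe's signal also depends on its own sequence, so levels are compared between arrays within a gene and not between genes. For genes that are not detected no level is given.

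Among the 7 measured lipid exporters of subfamily A, Abca2 and Abca7 were detected. Abca2, a lipid transporter of late endosomes and lysosomes, had levels of 4.17, 3.16, 3.29 and 3.23 on replicates 1 to 4 (3.46 ± 0.47, SD, n = 4). It was the detected member with the widest spread, and replicate 1 stood above the other 3 arrays. Its probe was printed in 10 spots per array, of which 9 or 10 were used, and the spots on replicate 1 ranged between 3.98 and 4.25, while no spot on the other arrays exceeded 3.35. The SD between spots of an array, which covers printing and scanning noise only, was at most 0.08. Replicate 1 stands apart less over the negative controls, with log2 distances of 8.85, 8.24, 8.65 and 8.76. Abca7, which exports phospholipid and is known for a part in phagocytosis, had levels of -1.35, -0.67, -0.76 and -0.69 (-0.87 ± 0.32, SD, n = 4). Here replicate 1 lay below the others. Its distances over the negative controls were 3.34, 4.41, 4.61 and 4.85. These are the levels plus a constant per array, smallest on replicate 1, so they had to be lowest there and are no second measure. Abca17 was well above background on replicates 3 and 4 and Abca5, an endosomal and lysosomal lipid transporter, on replicate 4, and both passed limma (adjusted p = 0.000204 and 0.0243). The call for Abca5 was lost without replicate 3, without replicate 4 and under normexp background correction. Abca4, the retinoid transporter of photoreceptors, Abca8a and Abca15 were flagged on no array.

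The nuclear receptors that control many transporter genes were measured beside them. Of 10 listed, 7 were detected. Nr1h3 (LXR alpha), a sterol sensor of macrophages, had levels of 6.10, 6.36, 6.07 and 5.61 (6.04 ± 0.31, SD, n = 4). Nr1h2 (LXR beta) had levels of 4.05, 3.94, 3.65 and 2.41 (3.51 ± 0.75, SD, n = 4), lowest on replicate 4. That array had a dim patch, described in the last section, and whether the Nr1h2 probe lies in it was not examined. Their partner Rxra had levels of -1.22, -1.07, -1.46 and -1.28 (-1.26 ± 0.16, SD, n = 4). The xenobiotic receptor Nr1i2 was flagged on 3 arrays, and Nr1i3 and Ppara on none, though limma called each of them above the negative controls.

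Of the 5 plasma membrane exporters of drugs, bile salts and phospholipid, Abcb4 was detected and Abcb1a, Abcb11 and Abcg2 were on no array. Abcb4, known as the phosphatidylcholine exporter of bile, had levels of 0.24, 0.66, 0.77 and 0.77 on replicates 1 to 4 (0.61 ± 0.25, SD, n = 4). Replicate 1 was the lowest, and both of its probes were detected. In the GRCr8 annotation Abcb4 lies beside Abcb1b and Abcb1a, the rodent P-glycoprotein genes for multidrug export, with 2 genes and 1 gene between neighbours. Abcb1b was flagged on replicate 3 only. Its brighter probe had signals 2.97, 7.50, 15.5 and 13.7 on replicates 1 to 4, a log2 distance over the negative controls of -0.13, 1.17, 2.34 and 1.92. It passed limma (adjusted p = 0.0154), and not without replicate 2. Abcb1a had distances of -0.49, 0.03, 0.00 and -0.44, and Abcg2, the breast cancer resistance protein that exports urate and drugs, had 0.00, -0.44, -0.07 and -0.11. Abcb11, the bile salt export pump of hepatocytes, had -0.20, -0.45, -0.06 and 0.05. None of these last 3 separated from the negative controls (adjusted p by limma between 0.963 and 0.985).

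Organic anion exporters of subfamily C (the MRP proteins) were detected for 4 of 8 members. Abcc1, which exports leukotriene C4 and glutathione conjugates, had levels of 3.41, 3.94, 3.57 and 3.31 on replicates 1 to 4 (3.56 ± 0.27, SD, n = 4), highest on replicate 2. This rests on 1 of its 2 probes. The other was flagged on 1 array, although both are assigned to the same transcript, so Abcc1 was not detected where all probes of a gene were required. Abcc4, an exporter of cyclic nucleotides and prostaglandins, had levels of 0.43, 0.15, 0.42 and 0.37 (0.34 ± 0.13, SD, n = 4), and both its probes were detected. Abcc5, also an exporter of cyclic nucleotides, had levels of 5.22, 4.83, 4.73 and 4.63 (4.85 ± 0.26, SD, n = 4), highest on replicate 1. Its distances over the negative controls were 9.90, 9.91, 10.1 and 10.17, with replicate 1 lowest. Abcc10, a broad exporter of conjugates, had levels of -0.77, -1.15, -1.36 and -1.05 (-1.08 ± 0.24, SD, n = 4). The 4 genes were above background on every array and varied between arrays by 1.22-fold (Abcc4) to 1.54-fold (Abcc1), highest over lowest.

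The other organic anion exporters were at or near background. Abcc2, the exporter of bilirubin conjugates into bile, was flagged on replicates 1 and 4, with log2 distances over the negative controls of 2.59, 1.58, 2.03 and 2.22. Abcc3, its counterpart on the blood-facing membrane of hepatocytes, was flagged on none, with 1.36, 0.73, 1.5 and 1.64. Both passed limma (adjusted p = 6.52e-05 and 0.000709) and lay above 0 on all 4 arrays. Abcc6, known for ATP release from hepatocytes, and Abcc12 were on no array and did not pass (adjusted p by limma 0.314 and 0.383). Of the 8 genes listed for glutathione supply and leukotriene synthesis, 5 were detected, namely Gclc, Gss, Gsr, Alox5 and Mgst1. Gclc, the catalytic subunit of glutathione synthesis, had a level of 3.88 ± 0.08 (SD, n = 4). Gclm and Alox5ap were flagged on no array and Ltc4s, the leukotriene C4 synthase, on 1. Limma called Ltc4s above the negative controls and did not call Gclm or Alox5ap.

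The potassium channel subunits of subfamily C, the sulphonylurea receptors Abcc8 and Abcc9, were flagged on no array, and neither were their pore subunits Kcnj8 and Kcnj11. Of the pore subunits, Kcnj11 was above the negative controls by limma and Kcnj8 was not. Abcc8 had log2 distances over the negative controls of -0.10, 0.37, 1.29 and 1.36 on replicates 1 to 4, and Abcc9 had -0.40, -0.38, -0.12 and -0.05. Abcc8 passed limma at an adjusted p of 0.0384, and did not without replicate 2, without replicate 3, without replicate 4 or under normexp. Abcc9 did not pass (adjusted p = 0.985 by limma).

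Among the pair-forming transporters of mitochondria and lysosomes in subfamily B, the mitochondrial Abcb8 and Abcb10 were detected. Abcb8 had levels of 0.38, 0.32, 0.28 and 0.22 on replicates 1 to 4 (0.30 ± 0.07, SD, n = 4). Abcb10, which supports heme synthesis in the inner membrane, had levels of 3.15, 3.07, 3.18 and 3.02 (3.10 ± 0.07, SD, n = 4). Abcb8 and Abcb10 were, with Abcg3l4, the members whose levels varied least, each within 1.12-fold over the 4 arrays. Levels of Abcb10 and Abcg3l4 average several probes, which varied more singly. The probe SDs were 0.13 and 0.15 for Abcb10 and 0.12 to 0.16 for Abcg3l4. Abcb6, tied to porphyrin transport, was flagged on replicate 4 only, and its brighter probe had distances over the negative controls of -0.49, -0.37, 1.52 and 2.49. It lay above the controls on replicates 3 and 4 and below them on 1 and 2, and limma did not call it (adjusted p = 0.146). Abcb9, a lysosomal peptide transporter, was on no array. All 7 measured genes of the iron-sulphur and heme list were detected. The scaffold gene Iscu had levels of 3.28, 3.19, 3.23 and 2.98 (3.17 ± 0.13, SD, n = 4).

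Abcb9 and the peptide transporter pair Tap1 and Tap2, ABC genes that carry other names, belong to the same branch of the family. Tap1 had levels of -0.43, -0.81, -0.75 and -1.09 (-0.77 ± 0.27, SD, n = 4) and Tap2 of 3.03, 2.90, 3.21 and 2.78 (2.98 ± 0.19, SD, n = 4). Both were above background on every array, as were all 5 of their peptide loading partners, Tapbp, Calr, Canx, Pdia3 and B2m. Cftr, the chloride channel of the family, was on no array.

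In subfamily D, Abcd3 and Abcd4 were detected. Abcd3, an abundant membrane protein of peroxisomes, had levels of 2.44, 2.89, 3.00 and 3.06 on replicates 1 to 4 (2.85 ± 0.28, SD, n = 4), lowest on replicate 1. Abcd4, which acts with Lmbrd1 in releasing cobalamin from lysosomes, had levels of -2.14, -2.57, -2.10 and -2.44 (-2.31 ± 0.23, SD, n = 4). Abcd2, which imports very long chain fatty acids into peroxisomes, was flagged on replicates 1, 2 and 4. Its signal was 58.5, 21.9, 11.5 and 29.2, and its distance over the negative controls was 4.17, 2.72, 1.91 and 3.02 (2.96 ± 0.94, SD, n = 4). Replicate 1, the array with the dimmest 75th percentile, had its highest signal, and without replicate 3 it counted as detected. Limma called it with all arrays (adjusted p = 0.00019). The 9 genes listed for peroxisomal import and beta-oxidation were all detected, Pex3 at -0.99 ± 0.29, Pex19 at -0.52 ± 0.25 and Pex5 at 1.57 ± 0.06 (SD, n = 4). Of the 5 genes of the cobalamin route, Lmbrd1, Mmachc, Mmadhc and Cd320 were detected. Tcn2, the plasma carrier, was on no array, though limma called it above the negative controls.

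The soluble ATPases Abce1, Abcf1 and Abcf3 were all detected. Abce1, which splits ribosomes after termination, had levels of 3.11, 3.05, 3.12 and 3.36 on replicates 1 to 4 (3.16 ± 0.14, SD, n = 4). Abcf1, a partner of the initiation factor eIF2, had levels of 5.24, 5.30, 5.46 and 5.19 (5.30 ± 0.12, SD, n = 4). Both stayed within 1.24-fold over the arrays. Abcf3, a relative of yeast Gcn20, had levels of 1.01, 1.69, 1.51 and 1.45 (1.41 ± 0.29, SD, n = 4), with replicate 1 below the others. The 9 genes listed as ribosome recycling and initiation partners were all detected, with Pelo, the rescue factor that works with Abce1, at 1.89, 2.34, 2.13 and 2.12 (2.12 ± 0.19, SD, n = 4).

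Of the sterol transporters in subfamily G, Abcg4 and Abcg8 were detected. Abcg4, a sterol exporter closely related to Abcg1, had levels of -0.66, -1.55, -1.57 and -1.02 on replicates 1 to 4 (-1.20 ± 0.44, SD, n = 4). Its probe had 2 spots per array, and the lower spot on replicate 1 (-0.89) was above both spots of replicates 2 to 4, the highest of which was -1.0. Over the negative controls Abcg4 had 4.02, 3.53, 3.80 and 4.52, with replicate 4 highest. Abcg8 had levels of 0.61, 0.06, 0.12 and -0.16 (0.16 ± 0.32, SD, n = 4), highest on replicate 1. Abcg8 works only as a pair with Abcg5 in exporting plant sterols and cholesterol from gut and liver cells. Abcg5 was flagged on no array, with distances over the negative controls of 0.59, 0.54, 1.31 and 1.36 (adjusted p = 0.00437 by limma, a call lost under normexp). Abcg8 had 5.30, 5.14, 5.48 and 5.38 on its detected probe, and its other probe, of the same transcript, was on no array. Detection of Abcg8 thus rests on 1 of 2 probes and was lost where all probes were required.

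Abcg5 and Abcg8 are adjacent and run in opposite directions, with annotated starts 206 bases apart in RefSeq's GRCr8 annotation, so the stretch upstream of each start reaches into the other gene. The window of 250 bases before the Abcg8 start (chr6:15717731-15717980 on the minus strand) is shown because it spans the shared interval, and capitals mark CpG dinucleotides, of which it has 5.
Abcg8: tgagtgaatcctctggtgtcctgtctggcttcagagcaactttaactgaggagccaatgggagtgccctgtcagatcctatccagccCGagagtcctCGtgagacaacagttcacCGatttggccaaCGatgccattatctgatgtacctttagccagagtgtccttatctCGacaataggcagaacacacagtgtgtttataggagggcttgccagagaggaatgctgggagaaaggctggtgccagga
The detected and the undetected gene of the pair thus share most of their upstream sequence. Whether the probes report those starts was not tested.

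The Abcg3 copies, a cluster of rodent genes related to Abcg2, were split by the call. Abcg3l4 had levels of 1.83, 1.68, 1.83 and 1.75 on replicates 1 to 4 (1.77 ± 0.07, SD, n = 4), and its 3 probes were all detected, at 3.07 ± 0.12, 2.99 ± 0.16 and -0.74 ± 0.14 (SD, n = 4 arrays each). Abcg3l1 had levels of 1.61, 0.95, 0.87 and 0.95 (1.1 ± 0.35, SD, n = 4), with replicate 1 above the rest on this scale. Its distances over the negative controls were 6.30, 6.02, 6.24 and 6.49, with replicate 4 highest. Abcg3l3 was flagged on replicates 1, 3 and 4, with distances over the negative controls of 2.6, 2.23, 2.70 and 2.83 (adjusted p = 8.01e-06 by limma). Abcg3 was on no array, with -0.57, -0.24, -0.22 and -0.30 (adjusted p = 0.985 by limma). A probe may bind transcripts of near-identical copies, so signal of Abcg3l1, Abcg3l3 and Abcg3l4 may be shared, and the probe sequences were not used here.

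The upstream sequences show how alike the copies are. The RefSeq windows of 250 bases in GRCr8 are given 5′ to 3′ with CpG dinucleotides in capitals. They lie at chr14:5481877-5482126 on the minus strand for Abcg3l1, chr14:4890062-4890311 on the minus strand for Abcg3l4, chr14:5148681-5148930 on the plus strand for Abcg3l3 and chr14:5069300-5069549 on the plus strand for Abcg3.
Abcg3l1: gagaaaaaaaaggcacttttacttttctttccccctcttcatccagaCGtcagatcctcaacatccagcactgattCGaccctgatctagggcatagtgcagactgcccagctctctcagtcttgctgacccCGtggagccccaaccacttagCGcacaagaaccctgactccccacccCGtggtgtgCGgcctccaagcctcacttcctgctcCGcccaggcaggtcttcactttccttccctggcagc
Abcg3l4: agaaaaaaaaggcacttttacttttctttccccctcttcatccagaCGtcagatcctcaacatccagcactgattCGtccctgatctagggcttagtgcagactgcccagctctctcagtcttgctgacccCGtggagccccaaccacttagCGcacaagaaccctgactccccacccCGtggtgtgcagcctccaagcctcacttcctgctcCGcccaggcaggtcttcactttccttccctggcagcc
Abcg3l3: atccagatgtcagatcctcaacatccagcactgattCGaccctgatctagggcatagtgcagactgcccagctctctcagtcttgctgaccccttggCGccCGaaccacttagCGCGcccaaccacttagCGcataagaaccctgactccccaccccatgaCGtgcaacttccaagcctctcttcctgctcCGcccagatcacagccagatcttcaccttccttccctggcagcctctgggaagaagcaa
Abcg3: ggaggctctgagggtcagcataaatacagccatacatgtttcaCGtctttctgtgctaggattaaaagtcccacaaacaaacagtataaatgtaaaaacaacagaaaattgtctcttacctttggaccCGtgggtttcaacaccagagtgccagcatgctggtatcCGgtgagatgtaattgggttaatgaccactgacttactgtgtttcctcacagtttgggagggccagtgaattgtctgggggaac
Local alignment matched 246 of 249 columns (98.8%) between the windows of Abcg3l1 and Abcg3l4, the detected copies. Abcg3l3, flagged on 3 arrays, matched Abcg3l1 in 196 of 234 columns (83.8%) and Abcg3l4 in 196 of 235 (83.4%), from a window whose annotated start is shifted relative to theirs. Abcg3, flagged on none, shared no stretch longer than 26 letters with any of them, so its annotated start opens on other sequence.

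Upstream windows were available for 32 of the 41 members. CpG counts in the 250 bases before the start differed between detected members and members on no array. The direction was the same as over all named genes, given here with no test. The median was 21 CpG in 16 detected members (range 5 to 42) and 6.5 in 10 members on no array (range 1 to 22). Over all named genes it was 16 in 7319 detected genes and 4 in 4548 genes on no array. The 6 members on 1 to 3 arrays had a median of 9.5. Among detected members 9 of 16 (56.2%) had 20 or more CpG, and among members on no array 1 of 10 (10%), which was Abcg2. Over all named genes the shares were 36.3% and 13.9%. The windows of Abcd3, which was detected and had the most CpG (42), Abcc12, which was on no array and had the fewest (1), and Abcg2, on no array with 22, show the extremes. They lie at chr2:212590380-212590629 on the minus strand, chr19:36722407-36722656 on the plus strand and chr4:89075224-89075473 on the plus strand in GRCr8, from RefSeq.
Abcd3: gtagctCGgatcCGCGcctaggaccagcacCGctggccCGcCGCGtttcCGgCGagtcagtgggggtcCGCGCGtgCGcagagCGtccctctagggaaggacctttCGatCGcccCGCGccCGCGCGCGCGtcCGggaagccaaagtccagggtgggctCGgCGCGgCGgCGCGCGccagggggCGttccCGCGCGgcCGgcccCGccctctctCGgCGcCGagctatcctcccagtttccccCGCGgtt
Abcc12: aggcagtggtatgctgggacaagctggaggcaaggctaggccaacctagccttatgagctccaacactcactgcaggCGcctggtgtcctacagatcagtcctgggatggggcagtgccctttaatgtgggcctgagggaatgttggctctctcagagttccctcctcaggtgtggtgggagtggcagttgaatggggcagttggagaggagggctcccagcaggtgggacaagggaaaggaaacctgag
Abcg2: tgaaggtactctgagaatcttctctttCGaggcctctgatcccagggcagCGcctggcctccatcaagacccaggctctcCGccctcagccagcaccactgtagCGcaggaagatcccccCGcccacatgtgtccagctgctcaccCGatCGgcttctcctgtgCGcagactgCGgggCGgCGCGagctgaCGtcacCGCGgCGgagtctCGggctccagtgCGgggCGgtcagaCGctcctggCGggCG
The pattern had exceptions on both sides: Abcg8, Abcg3l4 and Abcg3l1 were detected with 5, 6 and 7 CpG, and Abca5, flagged on 1 array, had 38.

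**Figure D2:**
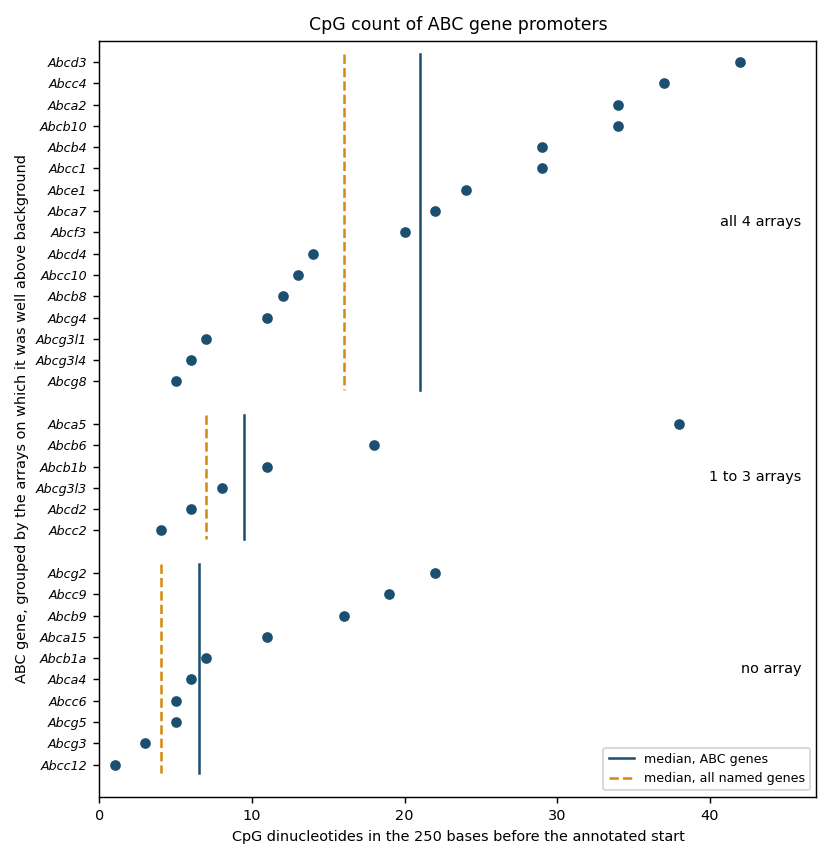
CpG dinucleotides in the 250 bases before the annotated start (horizontal axis) of 32 ABC genes, grouped by the arrays on which they were well above background. Solid lines are medians of the ABC genes (21, 9.5 and 6.5) and dashed lines those of all named genes (16, 7 and 4).

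Motifs were searched as exact letters on both strands of the same windows. The GC box GGGCGG, which overlaps CpG by its letters, stood in 22 of 32 ABC windows (68.8%) and in 45.3% of windows of named genes. Among detected members it was in 11 of 16 (68.8%), among those on 1 to 3 arrays in 6 of 6, and among those on no array in 5 of 10 (50%). Over all named genes these classes had 57.6%, 37.3% and 28.4%. The order among the members differs from this. It rests on 16, 6 and 10 windows, some of them sharing most of their sequence, and was not tested. The CCAAT box stood in 37.5% of ABC windows and 35.2% of those of named genes, and TATAAA in 12.5% and 11.6%. The core of the antioxidant response element, TGACNNNGC, was in 6.25% and 11.3%, and the nuclear receptor core AGGTCA in 18.8% and 11.9%. These matches describe letters in the window and no binding.

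Several probes were available for 14 members. All probes were detected in Abcb4, Abcb10, Abcc4 and Abcg3l4, none in 8 members, and probes fell on both sides of the call in Abcc1 and Abcg8. Of the 3631 named genes with several probes, all probes were detected in 1527, none in 1179, and probes fell on both sides in 925. The detected Abcc1 probe lay 8.10 to 9.01 log2 units over the negative controls on the 4 arrays, and its other probe was flagged on 1 array. Of the other 18 detected members, only Abcb4, Abcb10, Abcc4 and Abcg3l4 have several probes, and they stayed detected where all probes were required. The rest have 1 probe each, so for them any and all probes are the same rule.

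**Figure D3:**
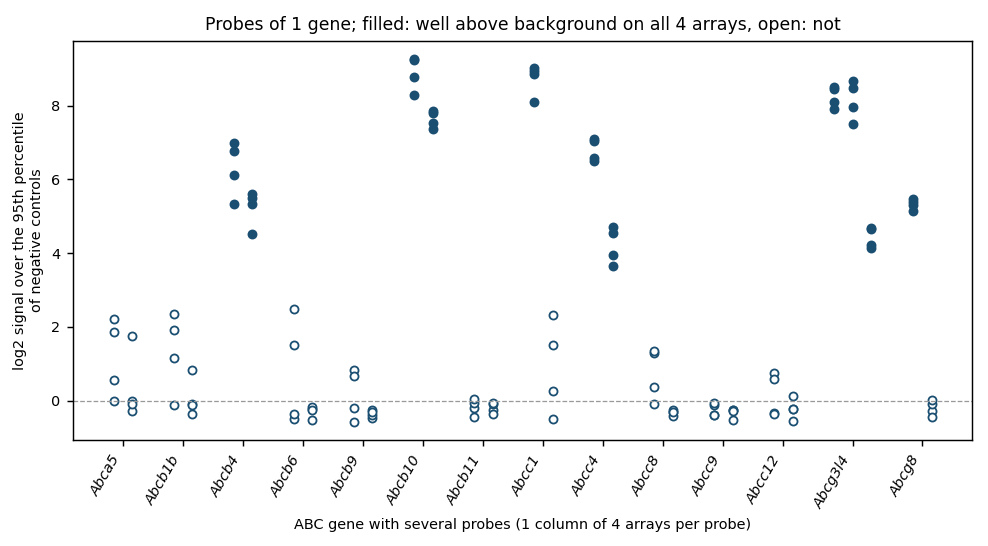
Log2 signal over the 95th percentile of negative controls for each probe of the 14 ABC genes with several probes, with 1 column of 4 points (arrays) per probe. Filled points belong to probes well above background on all 4 arrays; Abcc1 and Abcg8 have 1 filled and 1 open column each.

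The detected members varied between arrays about as much as other genes. Their median SD was 0.25 (interquartile range 0.14 to 0.30), against 0.24 (0.15 to 0.36) over the 8772 detected named genes. No detected ABC gene had an SD above 0.5, against 10.3% of all detected genes, and the highest was that of Abca2 (0.47). Without replicate 1 the median SD was 0.13, against 0.15 over all detected genes. The wider spread with all arrays thus came with replicate 1, in the ABC genes as in all genes.

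**Figure D4:**
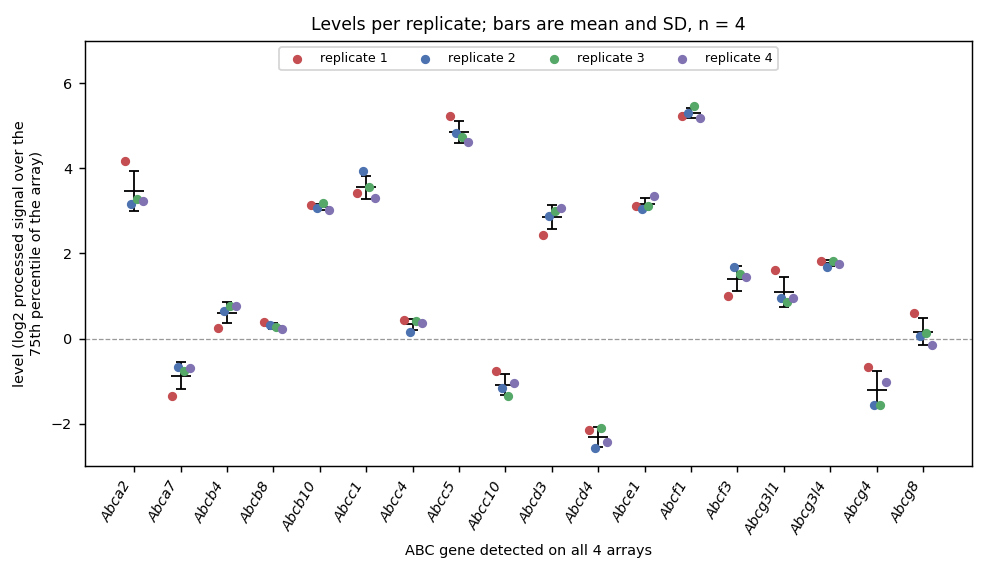
Level of 18 of the 20 detected ABC genes on the 4 arrays (log2 processed signal over the array's 75th percentile). Points are replicates and bars are mean ± SD (n = 4); the points of Abcb8, Abcb10 and Abcg3l4 nearly coincide, and replicate 1 stands apart for Abca2. Heights of different genes are not comparable.

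Replicate 1 was the array farthest from a gene's mean for 10 of 20 detected members (50%), against 54.7% of all detected genes. It was the highest array for 9 members (45%), against 42.3%, and the lowest for 4 (20%), against 32.8%. The 9 were Abca2, Abcb8, Abcc4, Abcc5, Abcc10, Abcg3l1, Abcg4, Abcg8 and, by a margin under the printed decimals, Abcg3l4. The 4 were Abca7, Abcb4, Abcd3 and Abcf3. These places are on the scaled levels. Over the negative controls, by the brightest probe of each gene, the same 4 were lowest on replicate 1. For 1 probe the scales differ only by a constant per array, smallest on replicate 1. A probe lowest there by level must be lowest over the controls too, so this is no second measure. Of the 9, only Abca2 was still highest on replicate 1 over the controls (8.85). Abcb8, Abcc5 and Abcc10 were among those lowest on it (5.06, 9.90 and 3.92), and the same constant enters these values. Median deviations of the detected members from their own means were 0.07, -0.05, 0.03 and 0.00 on replicates 1 to 4, against 0.05, 0.00, 0.02 and -0.05 over all detected genes. Members lay on both sides of their means on each array, and on replicate 1 the deviations ranged between -0.48 and 0.71.

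**Figure D5:**
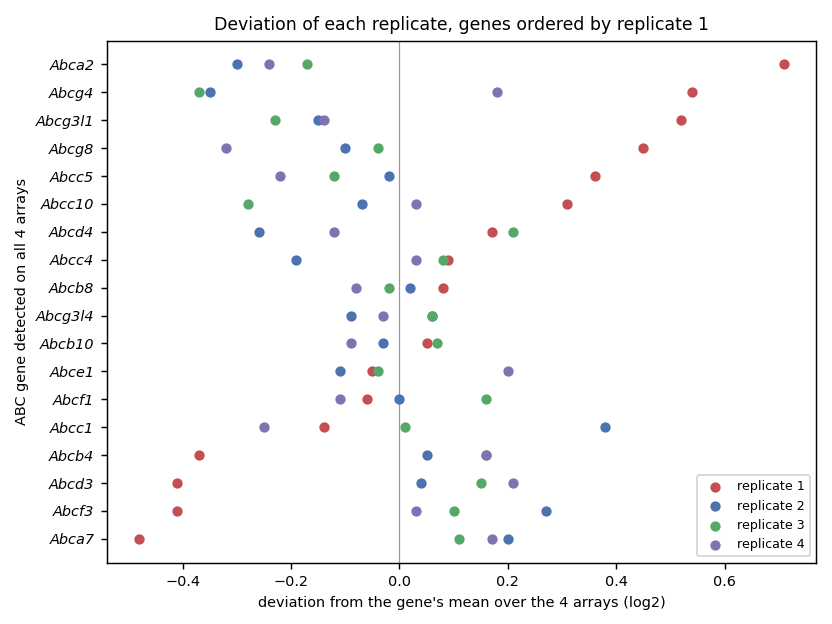
Deviation of each replicate from the gene's mean over the 4 arrays (log2, horizontal axis) for 18 of the 20 detected ABC genes, ordered by replicate 1. Replicate 1 ranges from -0.48 (Abca7, bottom) to 0.71 (Abca2, top), wider than the other arrays.

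Across the 9 companion lists, which were chosen with earlier results known, 48 of 58 measured genes (82.8%) were detected. The lists hold widely expressed genes by choice, so this share is no measure of the ABC family. Lists tied to peroxisomes, iron-sulphur and heme, ribosome recycling and peptide loading were detected whole, while Abcb6, Abcb9 and Abcd2 were not detected on all arrays.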

How the data were processed

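Cy3-labelled RNA of 4 samples of 1 group was hybridised to 1 slide. Per the file headers, the authors deposited linear intensity readings for each spot, namely a background-handled processed signal and median signals, along with flags, and nothing was scaled between arrays. Agilent Feature Extraction 11.0.1.1 made them, per the submitters' processing notes. Of 62976 spots per array, 4259 control spots and 440 to 1206 outlier spots were left out, and 318 probes had no usable spot on some array. No spot was saturated. Spots of a probe were averaged, and 20990 probes got a RefSeq symbol (GRCr8) through their accession without version. The files used here carry no gene name column. Levels, detection and the limma test (limma 3.58.1, R 4.3.3, lmFit and eBayes, Benjamini-Hochberg over all probes) are as defined above. A probe was flagged on an array if the majority of its spots were. Promoters were searched with Python 3.11.15 and Biopython 1.88. Counts cover all members. By rule every member is named, detected members with each array's value, except 2 that are not reported here, and companion genes if undetected or among the first 3 detected of their list. Members and lists were chosen with earlier results of these data known. Scripts were tested on simulated data. The number of arrays limits the precision.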

Additional observations from a re-analysis of the deposited data

Results flagged for a closer look

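In 3 of the 20 detected ABC genes, 1 array lay far from the other 3 relative to the gene's whole range, and each time it was replicate 1. Abca2 had a level of 4.17 on replicate 1, against 3.16 to 3.29 on the others. Abca7 had -1.35 on replicate 1, against -0.76 to -0.67. Abcg3l1 had 1.61 on replicate 1, against 0.87 to 0.95. These are levels scaled to the array's 75th percentile. Over the negative controls replicate 4 was highest for Abcg3l1 (6.49, against 6.30 on replicate 1), and for Abca2 replicate 1 had 8.85 and replicate 4 had 8.76. Chance marks about 1 in 20 genes in this way, and 8.41% of all detected genes were marked. Replicate 1 also had the lowest ratio of the 75th percentile of signal to the 95th percentile of negative controls, 25.7 against 33.7 to 46.5, and the part of this in the 3 values was not tested. Over the alternatives, replicate 1 minus the mean of the others ranged between 0.81 and 1.0 for Abca2, between -0.73 and -0.32 for Abca7 and between 0.32 and 0.71 for Abcg3l1.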

How the results depend on the processing

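The number of detected ABC genes ranged between 18, where all probes of a gene had to pass (43.9%, without Abcc1 and Abcg8, beside 47.5% of all named genes), and 27, under the positive-and-significant flag (65.9%, beside 66.9%). The number called by limma ranged between 26, under normexp (beside 65.3% of all named genes), and 29, the main value (70.7%, beside 69.8%). Members on no array numbered 5 under the positive-and-significant flag, beside 14, since that flag is looser. Leaving out each replicate in turn gave 20 to 21 detected members (48.8% to 51.2%, beside 53.3% to 56.2% of all named genes). It gave 27 to 29 by limma (beside 66.9% to 70.1% of all named genes), 14 to 16 on no array and a median SD between 0.13 and 0.28. For members on no array, the share of all named genes was not computed under the alternatives. The lowest SD, 0.13, was without replicate 1. The other 106 values of these counts, of the median SD and of the median deviations per array, and all 98 subfamily counts, stayed within 1.5 times or within the replicate spread. For single genes, 37 levels and 18 differences of replicate 1 moved by more than the replicate spread, and 241 and 240 did not. Replicate 1 minus the mean of the others changed sign under some alternative in members that include Abcb8, Abcb10, Abcc1, Abce1 and Abcg3l4. The moves of all 20 levels under the percentile over detected probes follow from its shifted zero point. Replicate 4 had a dim patch at rows 166 to 216 and columns 73 to 88. It was drawn around 77 detected probes more than 2 log2 units below the mean of the other arrays. With a margin of 5 it held spots of 2 ABC probes, of Abca2 and Abcb11. Leaving it out gave 20 detected members (48.8%, beside 53.1% of all named genes) and 29 by limma (beside 69.7%). No paired analysis was possible because the labels give 1 group. Naming by a gene name column was not run, since the files used here have none, and normexp used median signals. Depth is limited by signal over background: members such as Abcc3 or Abcg5, above the controls and not well above background, cannot be called either way.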
